A study of Bos taurus with 6 samples.

Results

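The miR-26 family was examined in extracellular vesicles (EVs) released by bovine oviductal organoids, as the 3 entries named bta-miR-26a, bta-miR-26b and bta-miR-26c among the 1028 mature miRNAs of the deposited table. The members were chosen by name. 3 small-RNA libraries came from the conditioned medium of Bos taurus organoids kept at 37 °C (thermoneutral) and 3 from organoids that spent the last day of culture at 42 °C (heat stress, HS). Organoids are self-organized 3-dimensional cultures, grown here from oviductal epithelium of slaughterhouse tracts in diestrus, and all 6 libraries shared the same medium, a synthetic matrix for the last days and growth at 37 °C before the split. Each replicate, labelled A, B or C, was a pool of 2 animals, so a value describes a pool of animals and its culture and not 1 cow. The same oviducts served both temperatures, but no label ties a letter to animals, so the p-values below measure the spread between libraries. The age of the animals is not given in the sources used here.

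miRNAs are short RNAs that guide silencing proteins to messenger RNAs, mainly by pairing through the seed near their 5′ end. The miR-26 family is widely expressed across mammalian tissues. In human and mouse, miR-26a and miR-26b carry the same seed and differ at few other bases, and their hairpins lie in introns of CTDSPL, CTDSP2 and CTDSP1, which encode small phosphatases that act on the tail of RNA polymerase II. A well studied target in those species is EZH2, a histone methyltransferase.

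The bovine annotation gave a similar picture of the loci. In RefSeq (assembly ARS-UCD2.0), 4 entries corresponded to the 3 deposited names. MIR26A-1 lies within the bounds of CTDSPL, MIR26A-2 within those of CTDSP2 and MIR26B within those of CTDSP1. The deposited value of bta-miR-26a therefore cannot be divided between MIR26A-1 and MIR26A-2. The entry MIR26C, with the synonym bta-mir-3603, has the same chromosome, start, end and length of 90 bases as MIR26A-1. Only 3 pairs of entries shared an interval in this way among the 1032 miRNA entries of the table, which gives no strand. The grouping of bta-miR-26c with the family thus rests on its name. Without a strand its place does not settle its sequence, and its seed was not examined here.

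The values are what the authors call TMM-adjusted CPM, reads per 1000000 brought to a common scale between libraries by the trimmed mean of M-values. After that adjustment a library need not sum to 1000000, and the deposited sums ran from 538100 (37 °C, A) to 2084369 (42 °C, C). Every value was a whole multiple of what 1 read is worth in its library, and the reads recovered from these steps totalled between 31640 and 213877 per library. bta-miR-1246 alone took from 25.0% (37 °C, A) to 71.8% (42 °C, C) of them. Shares are therefore given below both of all miRNA reads and of all miRNA reads other than bta-miR-1246. Among the markers of the expected cell type, 6 of 7 epithelial miRNAs (the miR-200 family and others) were in the table and all 6 had reads, with a summed level of 12347 to 19774 CPM at 37 °C and 12670 to 26238 CPM at 42 °C. Markers of multiciliated cells (miR-34 and miR-449) summed to 102 to 323 CPM at 37 °C and 99.6 to 201 CPM at 42 °C, with bta-miR-449b and bta-miR-449c at 0. Markers of other cell types had reads as well. Erythroid markers summed to 174301 CPM in replicate B at 42 °C. In replicates A and C at 42 °C they summed to 15412 and 20103 CPM, within the range at 37 °C (13912 to 47558 CPM). The erythroid marker bta-miR-144, with 9 reads in all libraries, averaged 3.69 CPM at 42 °C and 21.1 CPM at 37 °C. Leukocyte markers summed to 1167 to 1557 CPM at 37 °C and to 4006 to 11516 CPM at 42 °C, without overlap. The rise came mainly from bta-miR-150, which averaged 5052 CPM at 42 °C and 40.6 CPM at 37 °C. bta-miR-223 (162 and 10.6 CPM) did not overlap either, whereas bta-miR-155 (1225 and 1031 CPM) and bta-miR-142-5p (448 and 274 CPM) overlapped between temperatures. The remaining leukocyte marker, bta-miR-142-3p, had only 2 reads in all libraries, both in replicate B at 42 °C. Among the 251 miRNAs tested below, 24.3% had groups that did not overlap. Whether the erythroid and leukocyte markers came from such cells was not tested, nor was any part of such sources in the miR-26 values.

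bta-miR-26a was an abundant EV miRNA at both temperatures. At 37 °C it stood at 11803, 18323 and 18884 CPM for A, B and C. At 42 °C it stood at 22185, 21429 and 14330.4 CPM. The groups overlapped, because replicate C at 42 °C lay below replicates B and C at 37 °C, while replicate A at 37 °C was the lowest of all 6. By mean CPM, bta-miR-26a ranked 11 in either group, and its rank in single libraries ran from 7 (42 °C, A) to 11 (both A and C at 37 °C, and B and C at 42 °C). These values rested on 694, 3119 and 2556 reads at 37 °C and on 2791, 3873 and 499 reads at 42 °C. The lowest of these counts alone allows a counting error of 4.48%, whereas the level varied over the 6 libraries with a coefficient of variation of 22.7%.

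bta-miR-26b was present at a far lower level. At 37 °C it stood at 1259, 1163 and 805 CPM for A, B and C, with 74, 198 and 109 reads. At 42 °C it stood at 1089, 1162 and 546 CPM, with 137, 210 and 19 reads. The groups overlapped here as well, and replicate C at 42 °C, the library with the fewest reads of bta-miR-26b, was the lowest. The rank of bta-miR-26b ran from 44 to 75 over the libraries. Each read of a small-RNA library covers a whole miRNA, so no length correction was needed to set the members side by side, but unequal capture of different miRNAs during library preparation was not measured. bta-miR-26a exceeded bta-miR-26b in all 6 libraries.

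bta-miR-26c had no read in any of the 6 libraries. The depth allows up to 3 reads in a library, which is 51.0, 17.6 and 22.2 CPM at 37 °C (A, B and C) and 23.8, 16.6 and 86.2 CPM at 42 °C. These limits cover counting error only. Over the 712175 miRNA reads of all libraries together, up to 3 reads correspond to 4.21 reads per 1000000. On that limit for all libraries together, bta-miR-26a, with 13532 reads, was at least 4511-fold higher than bta-miR-26c, and bta-miR-26b, with 747 reads, at least 249-fold higher. No fold change between temperatures was computed for bta-miR-26c.

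**Figure D1:**
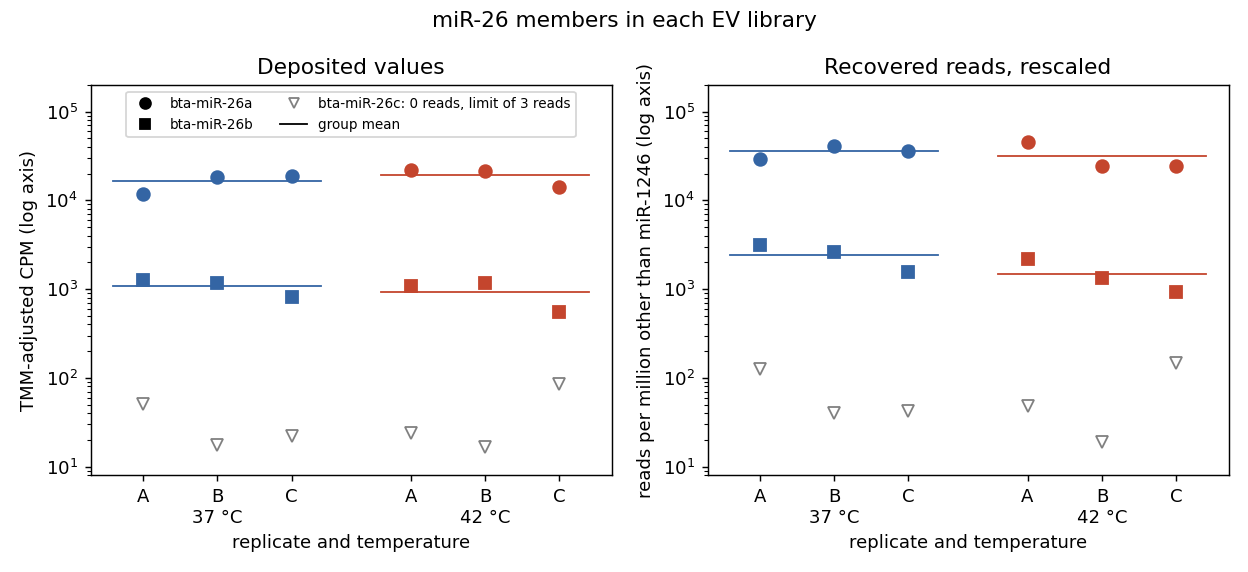
Levels of the miR-26 members by library on log axes, as deposited TMM-adjusted CPM (left) and as reads per 1000000 miRNA reads other than bta-miR-1246 (right), with points for libraries, lines for group means and open triangles for the limit of 3 reads on bta-miR-26c. bta-miR-26a lies between 11803 and 22185 CPM and bta-miR-26b between 546 and 1259 CPM, and for each of them the libraries at 37 °C and 42 °C overlap.

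To understand whether the family changed with HS, limma was fitted to log2(CPM + 10) of 251 miRNAs. These had averaged 10 CPM or more at either temperature, a filter that bta-miR-26a and bta-miR-26b passed and bta-miR-26c did not. Of the 251 miRNAs, 2.39% passed an adjusted p under 0.05 with a change of at least 2-fold, 4 of them higher and 2 lower at 42 °C. Neither bta-miR-26a nor bta-miR-26b was among them. bta-miR-26a averaged 19315 ± 4333 CPM (SD, n = 3) at 42 °C and 16337 ± 3936 CPM at 37 °C, giving a log2 fold change of 0.25 (standard error, SE, 0.45, 95% interval -0.72 to 1.21, limma adjusted p = 0.81). bta-miR-26b averaged 932 ± 337 CPM at 42 °C and 1076 ± 239 CPM at 37 °C (SD, n = 3), giving a log2 fold change of -0.25 (SE 0.44, 95% interval -1.22 to 0.71, limma adjusted p = 0.81). These intervals reach from 0.608-fold to 2.31-fold for bta-miR-26a and from 0.431-fold to 1.63-fold for bta-miR-26b, so the data do not exclude a change of either member by 2-fold in 1 direction. Groups that did not overlap were found for 24.3% of the miRNAs tested, and an unadjusted p under 0.05 for 17.5%, and neither member belonged to these (limma unadjusted p = 0.59 for bta-miR-26a and 0.58 for bta-miR-26b).

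**Figure D2:**
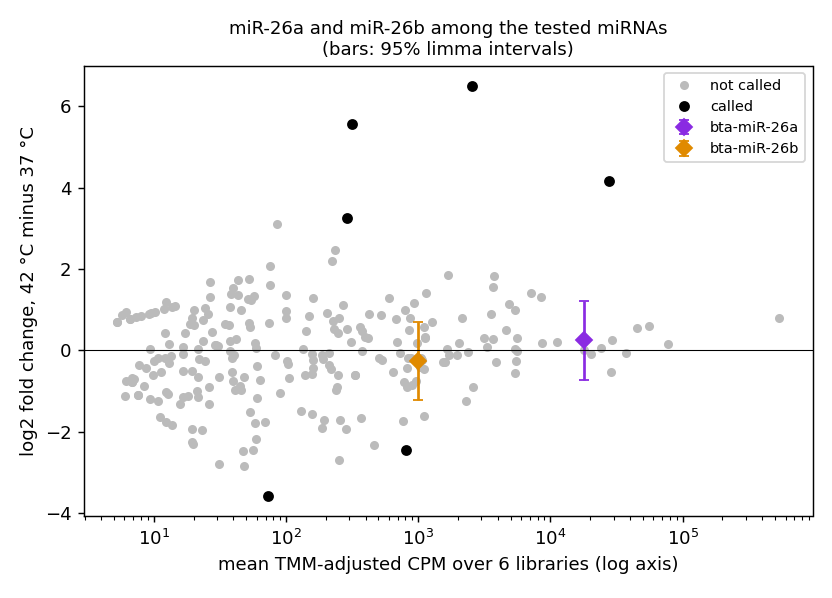
Log2 fold change (42 °C minus 37 °C) of the 251 miRNAs tested against their mean TMM-adjusted CPM over 6 libraries (log axis), with called miRNAs in black and 95% limma intervals for bta-miR-26a and bta-miR-26b. The intervals of bta-miR-26a (-0.72 to 1.21) and bta-miR-26b (-1.22 to 0.71) both include 0.

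The direction of the small difference of bta-miR-26a depended on how the libraries were scaled, whereas bta-miR-26b stayed negative under each scaling. When each library was brought to a sum of 1000000, the log2 fold change was -0.44 for bta-miR-26a (limma adjusted p = 0.75) and -0.93 for bta-miR-26b (limma adjusted p = 0.48). Without bta-miR-1246 in that sum, the values were -0.23 for bta-miR-26a and -0.73 for bta-miR-26b (limma adjusted p = 0.80 and 0.51). The same scalings moved the median of all 251 miRNAs from -0.01 to -0.54 and -0.46. Relative to that median, bta-miR-26a stood at 0.26 on the deposited scale and at 0.10 and 0.23 on the others, and bta-miR-26b at -0.24, -0.39 and -0.27. Relative to the median, bta-miR-26a thus kept its sign under these scalings, and so did bta-miR-26b, although neither difference passed the test. The value of bta-miR-26b relative to the median was 0 without replicate A at 37 °C and 0.0049 without replicate C at 42 °C. Replicate C at 42 °C decided the sign of bta-miR-26b, whose log2 fold change was 0.089 without that library. Without replicate A at 37 °C, that of bta-miR-26a was 0.027.

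**Figure D3:**
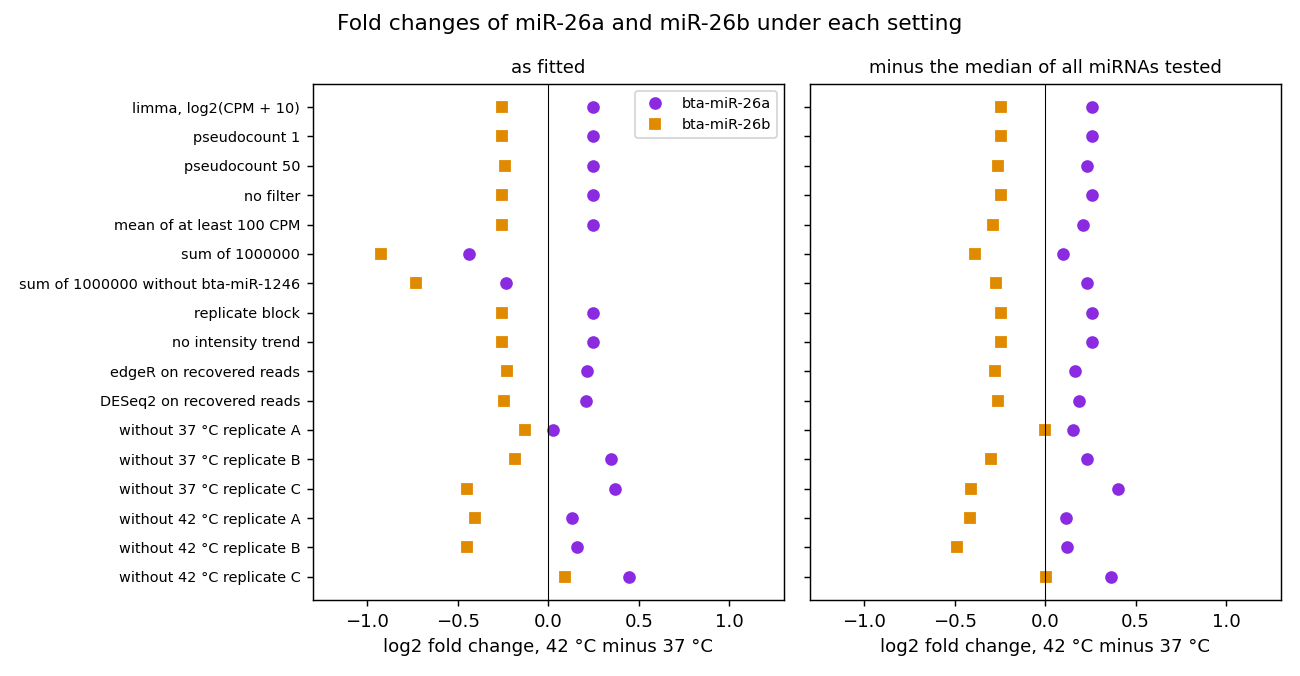
Log2 fold changes (42 °C minus 37 °C) of bta-miR-26a (circles) and bta-miR-26b (squares) under each scaling, filter, model and left-out library, as fitted (left) and after subtracting the median of all miRNAs tested (right). As fitted, bta-miR-26a runs from -0.44 to 0.45 and bta-miR-26b from -0.93 to 0.089, and after subtraction bta-miR-26a runs from 0.10 to 0.40 and bta-miR-26b from -0.49 to 0.0049.

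As a share of all miRNA reads, the family, in effect bta-miR-26a and bta-miR-26b, took 2.43%, 2.21% and 1.90% at 37 °C (A, B and C). At 42 °C it took 2.82%, 1.91% and 0.714%. The library with the lowest share, replicate C at 42 °C (95% Wilson interval 0.655 to 0.778%), was the one in which bta-miR-1246 took 71.8% of the reads. With bta-miR-1246 left out of the total, the shares were 3.24%, 4.42% and 3.78% at 37 °C and 4.72%, 2.61% and 2.53% at 42 °C. The highest and both of the lowest shares belonged to 42 °C, so the spread at 42 °C enclosed that at 37 °C. The mean shares of all miRNA reads were 2.18% ± 0.263 at 37 °C and 1.81% ± 1.06 at 42 °C (SD, n = 3, exact two-sided permutation test, p = 0.8). Without bta-miR-1246 they were 3.81% ± 0.590 and 3.28% ± 1.24 (SD, n = 3, exact two-sided permutation test, p = 0.6). The difference in shares of all miRNA reads, -3650.04 per 1000000 reads, turned to 1854 per 1000000 reads without replicate C at 42 °C. For 3 libraries against 3, the smallest p that this test can give is 0.1. In replicate B at 42 °C, where the family took 2.61%, erythroid markers took 201058 of every 1000000 reads other than bta-miR-1246 and the liver miRNA bta-miR-122 took 111446. In replicate C at 42 °C, where the family took nearly the same share, the corresponding values were 34176 and 22166. The ranges at 37 °C were 34468 to 91216 and 35423 to 48704, so the erythroid value lay only just below its range. In replicate A at 42 °C, with the highest share of the family, the erythroid and bta-miR-122 values were 31241 and 18094, the lowest of all 6 libraries. The part of these markers in the family's share was not tested.

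The balance between the 2 detected members does not depend on any scaling, because both are read in the same library. At 37 °C there were 9.38, 15.8 and 23.4 reads of bta-miR-26a for each read of bta-miR-26b (A, B and C). At 42 °C there were 20.4, 18.4 and 26.3. The groups overlapped, with replicate A at 37 °C the lowest and replicate C at 42 °C the highest. The mean log2 ratio was 4.42 ± 0.263 at 42 °C and 3.92 ± 0.663 at 37 °C (SD, n = 3), a difference of 0.50 (exact two-sided permutation test, p = 0.3, and 0.45 adjusted over 3 ratios). Without replicate A at 37 °C the difference shrank to 0.16, and without replicate C at 37 °C it was 0.82. Within 37 °C the exact 95% counting interval of replicate A, 7.37 to 12.1, did not overlap that of replicate C, 19.4 to 28.7. At 42 °C the 3 intervals overlapped, and that of replicate C, which held 19 reads of bta-miR-26b, ran from 16.6 to 44.0. In all, bta-miR-26a made up from 90.4% (37 °C, A) to 96.3% (42 °C, C) of the reads of the family. How reads that match both members were assigned is not given in the sources used here.

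The family was then set against the let-7 and miR-30 families, which are likewise abundant in many tissues and include regulators of development and differentiation. For each read of the let-7 family there were 0.160, 0.157 and 0.157 reads of the miR-26 family at 37 °C (A, B and C). At 42 °C there were 0.198, 0.177 and 0.182. The libraries at 37 °C were almost alike in this ratio, and all 3 libraries at 42 °C lay above them. The values at 37 °C lay closer together than the counting interval of replicate A alone is wide (0.148 to 0.172). Their small spread therefore cannot be taken as the true one. The mean log2 ratio was -2.43 ± 0.0859 at 42 °C and -2.66 ± 0.0139 at 37 °C (SD, n = 3), a difference of 0.23 (two-sided exact permutation test, p = 0.1, and 0.3 adjusted over 3 ratios). With 3 libraries a group, no lower p can be reached. The direction was the same in 3 of 3 libraries at 42 °C against every library at 37 °C, and the difference ranged from 0.19 to 0.27 when each library was left out in turn. Of the 3 ratios examined, it was the only ratio whose groups did not overlap. Such a separation was not rare in these libraries. Of 75 other miRNAs averaging 500 CPM or more, 14 (18.7%) had differences from bta-miR-26a that did not overlap. Among all miRNAs tested, 24.3% had levels that did not overlap. The exact 95% counting intervals at 37 °C ran from 0.148 to 0.172 over the 3 libraries and overlapped each other. That of replicate A at 37 °C also overlapped those of replicates B (0.171 to 0.183) and C (0.165 to 0.200) at 42 °C, while those of replicates B (0.152 to 0.163) and C (0.150 to 0.163) at 37 °C lay below all 3 at 42 °C. That of replicate A at 42 °C (0.191 to 0.206) lay above all 3 at 37 °C and overlapped that of replicate C at 42 °C.

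Against the miR-30 family no such order was seen. There were 1.47, 2.51 and 2.50 reads of the miR-26 family for each read of the miR-30 family at 37 °C, and 2.73, 2.25 and 1.196 at 42 °C. The groups overlapped, and the lowest values came from the 2 libraries with the fewest miRNA reads, replicate A at 37 °C and replicate C at 42 °C. The mean log2 ratio was 0.96 ± 0.622 at 42 °C and 1.07 ± 0.442 at 37 °C (SD, n = 3), a difference of -0.11 (exact two-sided permutation test, p = 0.7, and 0.7 adjusted over 3 ratios). Its sign turned without replicate B (0.020) or replicate C (0.016) at 37 °C, or without replicate C at 42 °C (0.24). The ratio to miR-30 had a far larger spread within each group than the ratio to let-7.

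**Figure D4:**
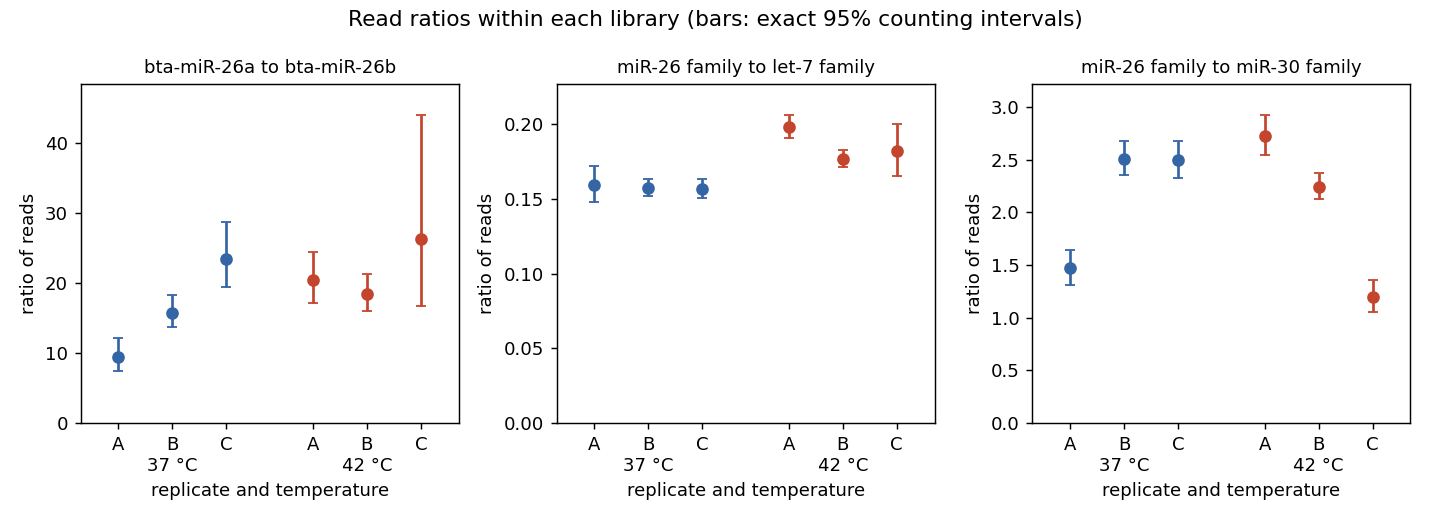
Ratios of recovered reads within each library, with exact 95% counting intervals as bars, for bta-miR-26a to bta-miR-26b (left), the miR-26 family to the let-7 family (middle) and the miR-26 family to the miR-30 family (right). The ratio to let-7 lies between 0.157 and 0.160 at 37 °C and between 0.177 and 0.198 at 42 °C, while the other ratios overlap between the temperatures.

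The miRNAs that moved most like each member were found from the SD, over the 6 libraries, of the difference in log2(CPM + 10) between that miRNA and the member, among those averaging 500 CPM or more. Of 75 candidates, the nearest to bta-miR-26a were bta-miR-27a-3p (SD 0.19), bta-let-7f (0.21), bta-miR-27b (0.22), bta-let-7c (0.22) and bta-let-7b (0.22), against a median of 0.69 over all candidates. bta-miR-27a and bta-miR-27b are paralogs from clusters shared with miR-23 and miR-24, and let-7 members are regulators of developmental timing and differentiation. bta-let-7f stood at 17415, 23228 and 22002 CPM at 37 °C and at 22153, 21799 and 15594 CPM at 42 °C. It was above bta-miR-26a in each library at 37 °C, by 0.22 to 0.56 on the log2 scale, and close to it at 42 °C, from -0.0021 to 0.12, without overlap between the groups. For the other 4 of these miRNAs the difference from bta-miR-26a overlapped between the temperatures. Among all 75 candidates, 14 (18.7%) had differences from bta-miR-26a that did not overlap, so 1 of the 5 nearest is near that background. bta-miR-26b ranked only 21 among the 75 candidates, with an SD of 0.52, so by this measure it followed bta-miR-26a less closely than 20 other abundant miRNAs. That SD includes the counting error of bta-miR-26b, which was 22.9% in replicate C at 42 °C (19 reads) and 11.6% in replicate A at 37 °C (74 reads). The part of counting error in this rank was not tested.

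For bta-miR-26b the nearest miRNA was bta-miR-125a (SD 0.26), a relative of the lin-4 miRNA of worms, followed by bta-let-7g (0.36), bta-let-7f (0.38), bta-miR-191 (0.42) and bta-let-7d (0.44), against a median of 0.87 over its 75 candidates. bta-miR-125a stood at 1173, 1480.4 and 1057 CPM at 37 °C and at 1327, 1062 and 488 CPM at 42 °C, with its lowest value in the same library as bta-miR-26b. bta-miR-26a ranked 13 in this order. In each list of 5 nearest miRNAs, 3 belonged to let-7, which gave 8 of the abundant miRNAs considered. These orders rest on 6 libraries and on miRNAs that share library depth and scale, and are given as a description. The residual SD of bta-miR-26a within temperatures, 0.37 on the log2 scale, ranked 20 from the lowest among 76 abundant miRNAs, and that of bta-miR-26b, 0.49, ranked 29, against a median of 0.56.

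**Figure D5:**
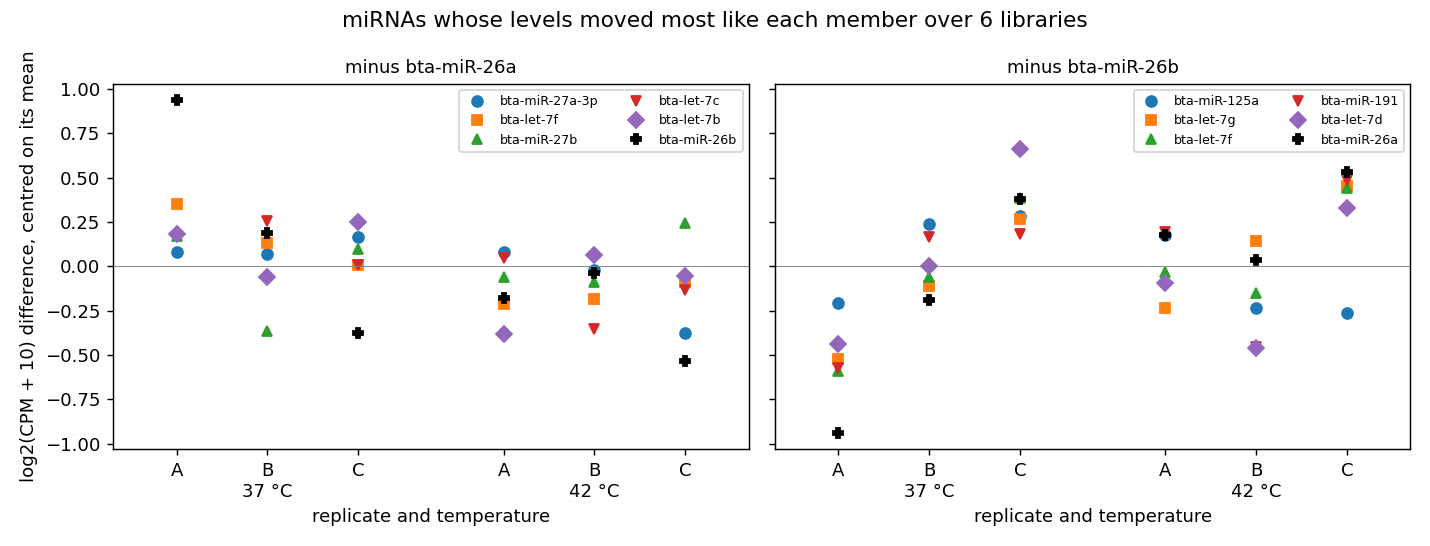
Difference in log2(CPM + 10) between each of the 5 nearest miRNAs and bta-miR-26a (left) or bta-miR-26b (right) in each library, centred on its mean over the 6 libraries, with the other miR-26 member as black crosses. The 5 nearest miRNAs of bta-miR-26a have SDs of 0.19 to 0.22, against 0.52 for bta-miR-26b.

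Finally, miRNAs known from human or mouse to act on EZH2, as miR-26 does, were examined. Of 4 such miRNAs, 3 passed the filter and none passed the test, while bta-miR-138 was too low to be tested. Over all 251 miRNAs 2.39% passed, so none of 3 is near that background. bta-miR-101, the most abundant of them, averaged 906 ± 381 CPM at 42 °C and 1210 ± 1016 CPM at 37 °C (SD, n = 3, limma adjusted p = 0.91). bta-miR-214 averaged 36.1 ± 23.4 and 12.8 ± 11.9 CPM (SD, n = 3, limma adjusted p = 0.59), while bta-miR-124a was at 0 at 37 °C and had 5 reads, all in replicate A, at 42 °C. The median of this list would be the fitted value of bta-miR-124a and is not given. bta-miR-26a exceeded bta-miR-101 in mean level in either group.

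Of the 9 let-7 members and the 6 miR-30 members used for the ratios, all passed the filter and none passed the test, near the 2.39% of all 251 miRNAs. Their median log2 fold changes were -0.05 for let-7, with 2 of 9 positive, and 0.81 for miR-30, with 5 of 6 positive. Over all miRNAs tested the median was -0.01, with 123 of 251 positive. The miR-30 median lay between 2 members with few reads, bta-miR-30c (463 in all libraries) and bta-miR-30b-5p (107). The members with the most reads, bta-miR-30d (4004) and bta-miR-30a-5p (1096), had log2 fold changes of 0.31 and -0.12. In the let-7 family bta-let-7a-5p, the highest, averaged 35926 ± 9628 CPM at 42 °C and 38199 ± 11822 CPM at 37 °C (SD, n = 3), so bta-miR-26a stood below it in either group. In the miR-30 family bta-miR-30d averaged 6243 ± 1243 and 5003 ± 765 CPM (SD, n = 3), below bta-miR-26a.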

How the data were processed

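Small-RNA reads of 6 EV libraries were trimmed by the authors and annotated against bovine miRBase entries in CLC Genomics Workbench. They were deposited as a TMM-adjusted CPM signal for 1028 miRNAs. The build ARS-UCD1.2 and the tools DESeq2, Bowtie2 2.2.2 and bcl2fastq appear in the submitters' processing notes without roles. In each library, 100% of values lay within 0.01 of whole steps, which gave the reads. The number of columns left unused was 0.

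Because the deposited unit is not counts, limma 3.58.1 (R 4.3.3) was fitted to log2(CPM + 10) with a mean-variance trend and without a block. P-values were adjusted by Benjamini-Hochberg over 251 miRNAs that averaged 10 CPM or more at either temperature. Fold changes on this scale understate changes of low miRNAs. As alternatives, edgeR 4.0.16 and DESeq2 1.42.0 were applied to the reads, and the pseudocount, filter, scaling, trend, block and each library were varied. Ratios and shares were compared with exact permutation tests (scipy 1.17.1). Fits were tested on simulated data. Wilson and exact intervals (95%) cover counting error only.

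Named miRNAs were the members, the 5 nearest in pattern to each, and up to 4 of the most abundant in each list. The members and lists were chosen with earlier results of these data known. 1 further list is not reported here. The search for other miRNAs with the same seed was not run, as no mature sequence was used here. RefSeq coordinates are not printed, since the notes name another build.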

Additional observations from a re-analysis of the deposited data

How the results depend on the processing

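bta-miR-26a and bta-miR-26b were not called in any of 17 fits, and their adjusted p ran from 0.70 to 1.00 and from 0.48 to 0.95 over the 16 alternatives (limma, edgeR, DESeq2). The log2 fold change of bta-miR-26a reversed when every library was rescaled to 1000000 (-0.44) and with that sum taken without bta-miR-1246 (-0.23). It ranged from 0.027 to 0.45 with each library left out, and that of bta-miR-26b from -0.45 to 0.089, the latter without replicate C at 42 °C. The count of called miRNAs, 6 (4 higher), was 10 with a mean of at least 100 CPM and 10 without the intensity trend. It was 20 (4 higher, 16 lower) with sums of 1000000 and 14 (4 higher, 10 lower) without bta-miR-1246 in the sum. It was 11 in edgeR and 17 in DESeq2, and 1 to 9 with each library left out, 1 without replicate B and 3 without replicate C at 37 °C. The cause of these shifts was not tested.

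With the letter as a replicate block the count was 15, and the block changed no call of a member (log2 fold change 0.25 for bta-miR-26a, adjusted p = 0.89, limma). Whether the letters mark shared animals is not given in the labels. Deviations of same-letter libraries from their group means correlated between -0.062 and 0.035, and 0 of 6 libraries were closest to their own letter. Within letters, the ratio of bta-miR-26a to bta-miR-26b and that of the family to let-7 were higher at 42 °C in 3 of 3 (exact sign-flip test, p = 0.25 each, its smallest), and that to miR-30 and the family's share in 1 of 3 (exact sign-flip test, p = 0.75 each). bta-miR-26c gave no value under any alternative.

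The ratio of bta-miR-26a to bta-miR-26b kept its direction in all 9 alternatives (0.16 to 0.82 with libraries left out), as did the ratio to let-7 (0.19 to 0.27). The ratio to miR-30 ranged from -0.37 to 0.24 with libraries left out. The family's share difference ranged from -8681 to 1854 per 1000000 reads with libraries left out, and in deposited CPM it was 2834. The depth limits bta-miR-26c and, in replicate C at 42 °C, bta-miR-26b with 19 reads.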
